A study of Mus musculus with 3 samples.

Results

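The 10 genes described here make the MHC class I molecule of the mouse and load it with peptide. They are the light chain B2m, the heavy chains H2-K1, H2-D1, H2-Q4, H2-Q6, H2-Q7, H2-T22 and H2-T23, the peptide transporter subunit Tap1 and the loading factor Tapbp. They were taken by gene symbol, and all 10 were found among the 27998 genes of the matrices. The cells were CD11c+ phagocytes sorted from Peyer's patches, the lymphoid follicles of the small intestine, and were profiled one by one in droplets from the 3' ends of their transcripts. The CpG library came from female C57BL/6Rj mice that had received 125 µg of CpG, short DNA that stimulates Toll-like receptor 9, by intraperitoneal injection 9 h earlier. The R848 library came from mice of the same strain and sex given 10 µg of R848, an agonist of Toll-like receptor 7, by the same route and for the same 9 h. The Control library came from untreated mice, which had no mock injection. Each library was a single pool of 12 mice, with 85 patches for CpG, 90 for R848 and 88 for Control. The sources used here do not give the age of the mice. No group had a replicate, so no test was possible, and every interval below is a 95% interval that covers counting error alone.

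MHC class I molecules show short peptides, mostly from proteins made inside the cell, to CD8 T cells. A heavy chain pairs with B2m in the endoplasmic reticulum. There the TAP transporter, built from Tap1 and Tap2, brings in peptides from the cytosol, and tapasin, the product of Tapbp, holds the empty molecule beside the transporter. Dendritic cells use this route also for material they have taken up, which is called cross-presentation and is best known for cDC1. H2-K1 and H2-D1 encode the classical heavy chains of this strain. H2-Q6 and H2-Q7 lie in the Qa region and give Qa-2 antigens, H2-Q4 is a further heavy chain of that region, H2-T23 encodes Qa-1, a ligand of the NK cell receptor CD94/NKG2A, and H2-T22 encodes a chain known as a ligand of some gamma-delta T cells.

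Stretches of 60 bases upstream of the gene starts are shown because they let a reader see which letters the members have in common. They come from RefSeq's GRCm38.p6 promoter windows, which run from 250 bases before to 50 bases after a start and were matched for all 10 members. H2-K1 has 2 RefSeq starts, and the most upstream was used. The RefSeq start lies inside the GENCODE gene by 3579 bases for Tapbp, 364 bases for H2-D1 and 154 bases for H2-T23, so that these windows leave out the sequence before the GENCODE start or hold it in part. The stretches of H2-D1 and H2-T23 fall inside the bounds of the GENCODE genes and are not printed, and their matches lie there too. The capitals mark GGGATTCCC, a form of the NF-kB site of the class I enhancer, and TTTCNNTTC and TTTCNNTTT, which are forms of the interferon-stimulated response element. All were searched on both strands, and matches to the last 2 can overlap. The B2m stretch carries TTTCNNTTT on the reverse strand, so that it reads as its reverse complement.
B2m, chr2:122147537-122147596, plus strand: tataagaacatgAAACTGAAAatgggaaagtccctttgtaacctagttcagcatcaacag
H2-K1, chr17:34000410-34000469, minus strand: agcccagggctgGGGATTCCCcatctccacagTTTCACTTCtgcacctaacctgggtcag
H2-Q4, chr17:35379431-35379490, plus strand: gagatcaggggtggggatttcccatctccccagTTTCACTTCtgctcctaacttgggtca
H2-Q6, chr17:35424666-35424725, plus strand: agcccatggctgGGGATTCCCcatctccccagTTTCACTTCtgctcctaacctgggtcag
H2-Q7, chr17:35439011-35439070, plus strand: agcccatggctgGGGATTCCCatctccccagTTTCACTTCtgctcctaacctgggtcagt
H2-T22, chr17:36042886-36042945, minus strand: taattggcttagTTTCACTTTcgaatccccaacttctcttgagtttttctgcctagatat
H2-K1, H2-D1, H2-Q6 and H2-Q7 held both GGGATTCCC and TTTCNNTTC, H2-Q4 held TTTCNNTTC, and B2m, H2-T22 and H2-T23 held TTTCNNTTT. Before its TTTCNNTTC the H2-Q4 stretch reads gggatttccc, which is GGGATTCCC with an added T. The search took exact letters, so it does not show that H2-Q4 lacks an NF-kB site. The windows of Tap1 and Tapbp, as placed by RefSeq, held no match to any of these letters. Of 32851 promoter windows of this length, 0.353% held GGGATTCCC, 7.52% held TTTCNNTTC and 10.6% held TTTCNNTTT. These matches are descriptions of letters and not measured binding sites.

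The libraries held 43537067 to 46556726 UMIs (unique molecular identifiers, each standing for 1 captured transcript molecule) over 5049 to 5344 cell barcodes, and pairs of libraries shared 33 to 42 barcodes. After filters and removal of scored doublets, 4821 CpG, 4898 R848 and 5079 Control cells were left. Cells were assigned to types by the UMIs of fixed marker genes, none of them a member: high lysozyme and complement C1q genes without a Cd4 UMI (LysoDC, the lysozyme-expressing monocyte-derived dendritic cells of this tissue), the same with at least 1 Cd4 UMI (macrophages), high Ccr7 and Fscn1 without lysozyme (mature DC), and resting cDC1 and cDC2 by their lineage markers. These names stand for the gates. A macrophage whose Cd4 transcripts were missed would fall in the LysoDC gate. The gates held 901 CpG, 1357 R848 and 1578 Control LysoDC, and 391, 621 and 548 macrophages in the same order. They held 2791 CpG, 2136 R848 and 273 Control mature DC, and 254, 265 and 958 resting cDC2. Resting cDC1 numbered 13 with CpG and 5 with R848, too few to describe, and 364 in Control. The gates took in 90.2% of CpG, 89.5% of R848 and 73.3% of Control cells. In every one of the libraries all 7 mature markers reached 5 counts per 1000000 UMIs (CPM) in mature DC, all 5 lysozyme and C1q markers did so in LysoDC and macrophages, and 7 or 8 of 8 cDC2 markers did so in resting cDC2. These lists hold gate genes, so this was fixed in part by the gates. The limit does not separate types, since all 5 lysozyme and C1q markers also reached it in mature DC and resting cDC2. Their sums in Control were 79529 CPM in LysoDC, 2735 CPM in mature DC and 3418 CPM in resting cDC2. Of 7 macrophage markers, which include the gate gene Cd4, 6 reached 5 CPM in macrophages, where Fcgr1 was at 0 in Control. In LysoDC, which have no Cd4 UMI by the gate, 4 did so with CpG, 4 with R848 and 5 in Control. The list summed to 5613, 5144 and 4881 CPM in macrophages of the CpG, R848 and Control libraries, and to 3961, 3595 and 3063 CPM in LysoDC. Of 3 general DC markers, 2, 1 and 2 reached 5 CPM in LysoDC of these libraries, and 1 did so in macrophages of each. All 3 did so in mature DC and resting cDC2. These markers summed to 310, 199 and 265 CPM in LysoDC and 289, 185 and 244 CPM in macrophages, so they set these gates little apart.

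B2m (chr2:122147686-122153083, plus strand; gene positions are GENCODE's on GRCm38) encodes the light chain that all of these heavy chains need. A level is the CPM of the UMIs summed over the cells of a type. Since 1 captured 3' end gives 1 UMI whatever the transcript's length, levels were not scaled by length. Levels of different genes compare only as far as their 3' ends can be told apart, a limit taken up below. In macrophages B2m stood at 13454 CPM with CpG, 13514 CPM with R848 and 12077 CPM in Control. In LysoDC it stood at 10952, 11303 and 9348 CPM in the CpG, R848 and Control libraries. Macrophages were the highest of the types in every library. Mature DC held 11844 CPM of B2m with CpG and 12719 CPM with R848, against 6582 CPM in Control. Mature DC thus stood above LysoDC in both treated libraries and below them in Control. Resting cDC1 held 4113 CPM in Control, and resting cDC2 held 5668, 6203 and 3922 CPM with CpG, with R848 and in Control.

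The classical heavy chains also differed by type and library. H2-D1 (chr17:35262730-35267499, plus strand) was the most abundant heavy chain in all types and libraries described, at 5418 CPM with CpG, 5714 CPM with R848 and 4700 CPM in Control in macrophages. In mature DC it reached 5786 CPM with CpG and 6445 CPM with R848, against 2650 CPM in Control. H2-D1 stood lowest in resting cDC2, at 1923, 2093 and 1409 CPM in the CpG, R848 and Control libraries. H2-K1 (chr17:33996017-34000347, minus strand) was at 3390 CPM with CpG, 3598 CPM with R848 and 3286 CPM in Control in macrophages, a narrow range. In mature DC it was at 3161 CPM with CpG and 3465 CPM with R848, against 1673 CPM in Control. Resting cDC1 of Control held 2241 CPM of H2-D1 and 1153 CPM of H2-K1, above the 1409 and 809 CPM of resting cDC2 in the same library. There were 1.42 H2-D1 UMIs per H2-K1 UMI in Control LysoDC and 2.07 in CpG resting cDC2, the lowest and the highest values of the 5 gated types.

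The spread over single cells showed these differences cell by cell. With every cell thinned to 3000 UMIs, the median mature DC carried 35 B2m UMIs with CpG (quartiles 27 and 43) and 37 with R848 (quartiles 29 and 46), against 17 in Control (quartiles 12 and 24). The upper quartile of Control mature DC lay below the lower quartile of mature DC from both treated libraries. The median LysoDC carried 33 B2m UMIs with CpG and 33 with R848, against 28 in Control. For H2-D1 the median mature DC carried 15 UMIs with CpG and 16 with R848, against 6 in Control. Thinning left out 202 CpG, 194 R848 and 32 Control mature DC with fewer UMIs.

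Of the Qa region genes, H2-Q7 (chr17:35439155-35443773, plus strand) was the most abundant. It stood at 1062 CPM with CpG, 1027 CPM with R848 and 985 CPM in Control in macrophages, and at 604, 655 and 620 CPM in LysoDC. In mature DC it was at 865 CPM with CpG and 801 CPM with R848, against 477 CPM in Control. Resting cDC2 held 168, 179 and 129 CPM of H2-Q7 in the CpG, R848 and Control libraries, and resting cDC1 of Control held 156 CPM. H2-Q7 was thus several-fold lower in resting cDC than in the other types of each library. H2-Q6 (chr17:35424850-35430055, plus strand) was highest in mature DC of the treated libraries, with 328 CPM under CpG and 345 CPM under R848, against 134 CPM in Control. In LysoDC it was at 90.2 CPM with CpG, 160 CPM with R848 and 87.4 CPM in Control. H2-Q4 (chr17:35379617-35385290, plus strand) had 261 CPM with CpG and 317 CPM with R848 among mature DC, against 136 CPM in Control. In LysoDC it had 80.7 CPM with CpG, 143 CPM with R848 and 94.8 CPM in Control, so that R848 was the high library for both H2-Q4 and H2-Q6 there.

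H2-T22 (chr17:36037128-36042747, minus strand) and H2-T23 (chr17:36029773-36032855, minus strand) are neighbours at the far end of the complex. In macrophages H2-T22 was at 389 CPM with CpG and 488 CPM with R848, against 179 CPM in Control. The level in LysoDC was 243 CPM with CpG, 296 CPM with R848 and 116 CPM in Control. H2-T22 was lowest in resting cDC2, at 81.3, 71.3 and 44.4 CPM with CpG, with R848 and in Control. H2-T23 was at 484 CPM with CpG and 563 CPM with R848 among macrophages, against 280 CPM in Control. In resting cDC2 H2-T23 reached 281 CPM with CpG and 288 CPM with R848, against 154 CPM in Control. It was the heavy chain gene whose levels in resting cDC2 came nearest to those of mature DC, which held 340 CPM with CpG, 349 CPM with R848 and 142 CPM in Control.

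Sequence shared with other genes limits the single values. In a search of GENCODE transcripts for 50-base words of the last 300 bases, 49.0% of the words of H2-T22 also occurred in H2-T10, which is not among the genes of the matrices. For H2-Q6 49.4% of the words occurred in another gene, 27.7% of them all in H2-Q7. The shares were 45.4% for H2-Q4 and 50.6% for H2-T23, 13.5% for H2-D1 and 9.54% for H2-K1. The gene sharing most words was Gm43321 for H2-Q4 (25.9%) and Rab33b for H2-T23 (31.1%), neither of them a member. No word from the ends of B2m or H2-Q7 occurred in another gene. H2-Q7 transcripts do hold the H2-Q6 words counted above, so H2-Q7 is not free of this limit. The sources used here name the counting tool but not its treatment of reads that match several genes, so the levels of H2-Q4, H2-Q6, H2-T22 and H2-T23 are uncertain. The same holds for comparisons of these genes with other genes, and for sums and shares of the heavy chains.

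Tap1 (chr17:34187553-34197225, plus strand) had another order of cell types. It was highest in mature DC of the treated libraries, at 472 CPM with CpG and 449 CPM with R848, against 227 CPM in Control. Resting cDC1 held 281 CPM in Control, more than any other type of that library. LysoDC had 199 CPM of Tap1 with CpG and 184 CPM with R848, against 125 CPM in Control, and macrophages had 255, 240 and 126 CPM in the same order. Resting cDC2 had 193 CPM with CpG and 142 CPM with R848, against 96.4 CPM in Control. Tapbp (chr17:33915899-33929292, plus strand) kept nearer to the order of the chains, with 584 CPM with CpG and 596 CPM with R848 among mature DC, against 279 CPM in Control. Macrophages held 566, 578 and 440 CPM of Tapbp in the CpG, R848 and Control libraries. Per Tapbp UMI there were 1.19 Tap1 UMIs in resting cDC1, 0.754 to 0.813 in mature DC, and 0.286 to 0.451 in LysoDC and macrophages.

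**Figure D1:**
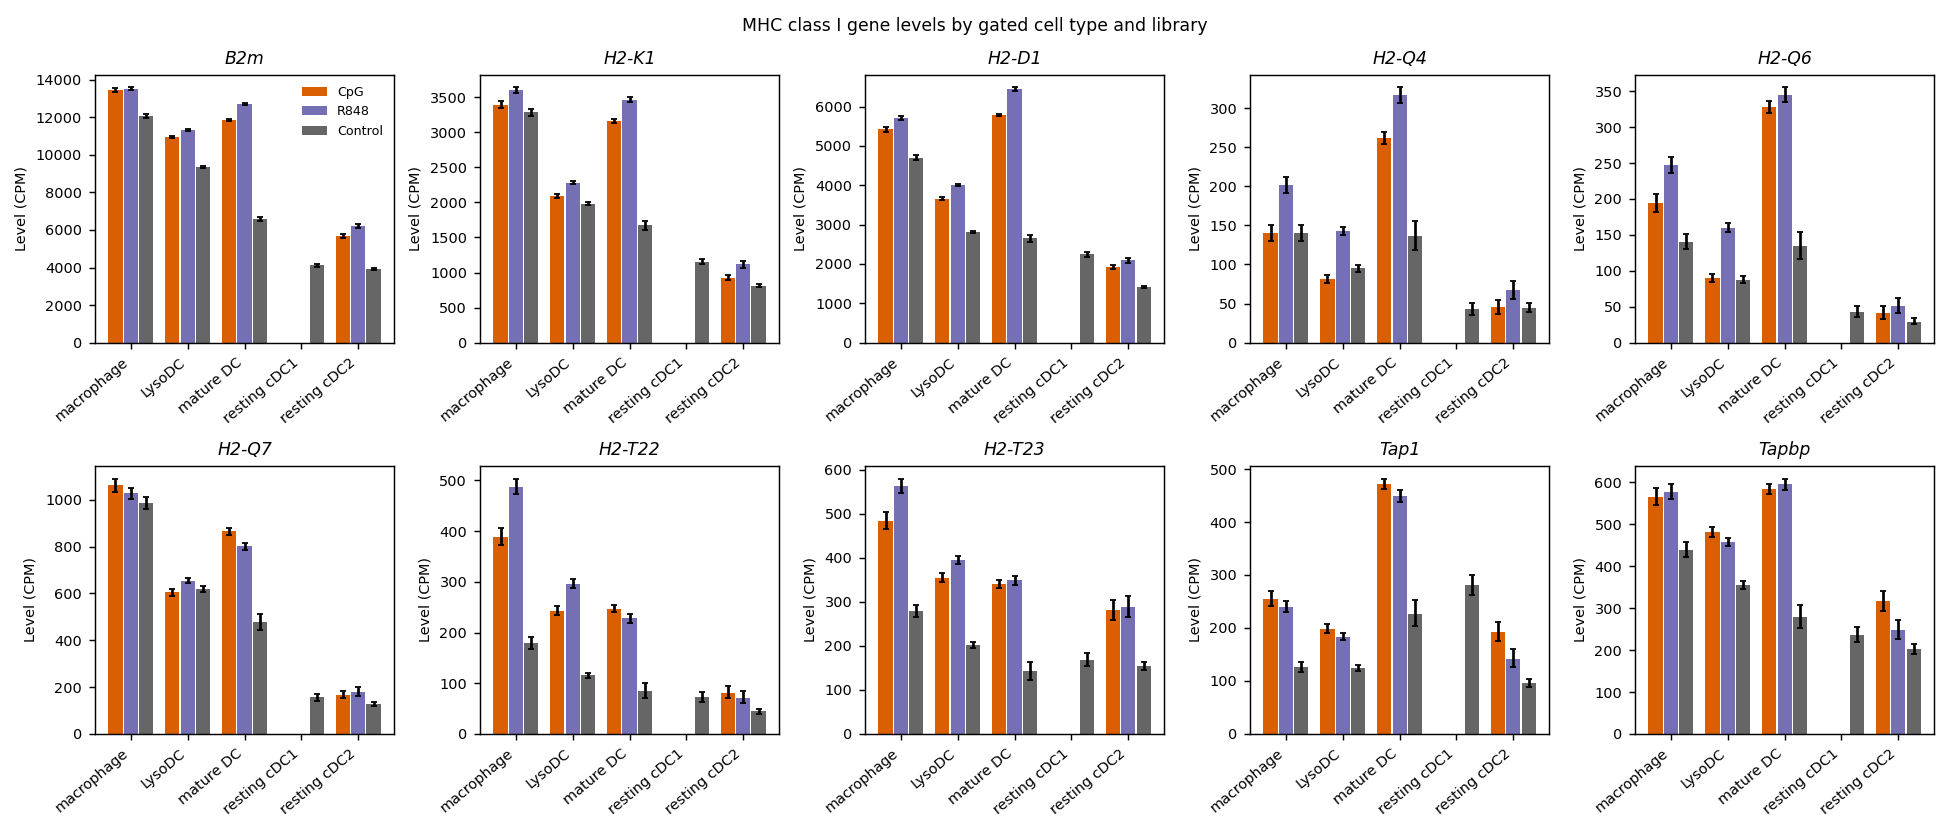
Level of each of the 10 genes in CPM (vertical axis, from 0, each panel on its own scale) in the 5 gated cell types, with orange bars for CpG, purple for R848 and grey for Control, and error bars for the 95% Poisson counting interval. Resting cDC1 had too few cells in the treated libraries. B2m, H2-K1, H2-D1 and H2-Q7 are lowest in resting cDC, and the mature DC bars of all genes are higher with CpG and R848 than in Control.

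Summed over B2m and the 7 heavy chains, class I took up 2.45% of all UMIs in macrophages with CpG, 2.54% with R848 and 2.18% in Control. In mature DC the share was 2.28% with CpG and 2.47% with R848, against 1.19% in Control. Resting cDC2 spent 0.913%, 1.01% and 0.654% of their UMIs on class I in the CpG, R848 and Control libraries. B2m outnumbered the heavy chains together in every type and library of the main gates, from 1.06 B2m UMIs per heavy chain UMI in resting cDC1 to 1.64 in resting cDC2 with CpG.

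The make-up of the heavy chains also differed. H2-Q4, H2-Q6 and H2-Q7 together gave 13.2% of heavy chain UMIs in mature DC with CpG, 12.2% with R848 and 14.1% in Control. In resting cDC2 they gave 7.34%, 7.68% and 7.74%, and in resting cDC1 of Control 6.24%. H2-T22 and H2-T23 together gave 8.39% with CpG and 8.71% with R848 in LysoDC, against 5.38% in Control. In macrophages they gave 7.88% with CpG and 8.88% with R848, against 4.72% in Control. In resting cDC2 they gave 10.5% with CpG and 9.30% with R848, against 7.58% in Control. Mature DC had the narrowest range for these genes, 5.34%, 4.83% and 4.27% in the CpG, R848 and Control libraries.

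**Figure D2:**
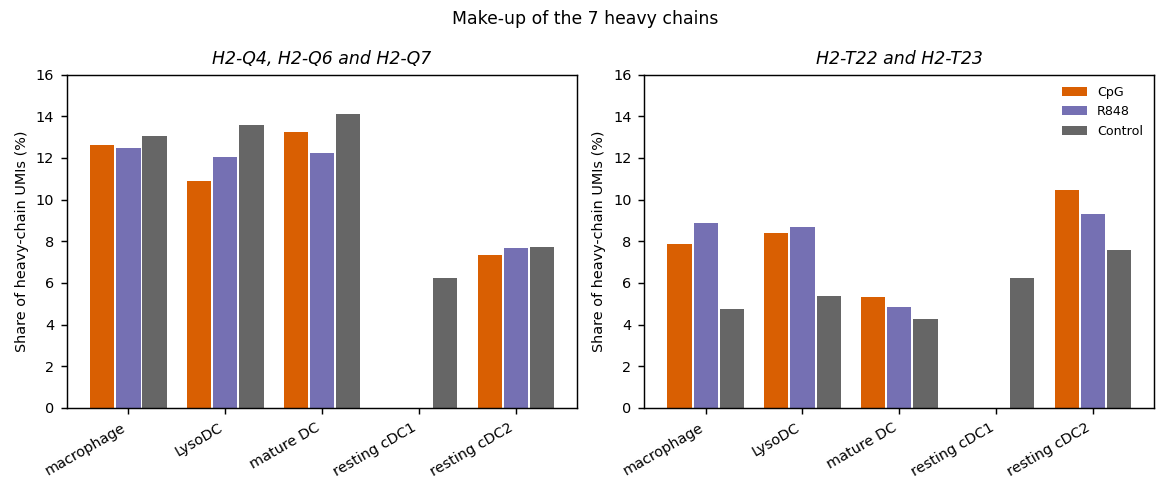
Share of heavy chain UMIs (vertical axis, percent, from 0) given by H2-Q4, H2-Q6 and H2-Q7 together (left) and by H2-T22 and H2-T23 together (right) in each gated type, with orange for CpG, purple for R848 and grey for Control. The Qa region share is 10.9% to 14.1% in macrophages, LysoDC and mature DC and 6.24% to 7.74% in resting cDC, while the T region share is higher in both treated libraries than in Control in every type compared, and is highest in resting cDC2 with CpG, at 10.5%.

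In lysozyme-high cells H2-T22, H2-T23 and Tap1 were higher than in Control with both agonists, H2-Q6 and H2-Q4 of LysoDC were higher with R848, and H2-K1 and H2-Q7 differed little. A difference was counted when it reached 2-fold after 5 CPM were added to both levels, among genes with at least 20 CPM on either side. H2-T22 alone met this in LysoDC, so that 1 of 10 members was higher with CpG, where 2.97% of the 4652 genes measured were, and 1 of 10 with R848, where 4.33% of 4829 were. With CpG this call was lost at a pseudocount of 20 CPM, where the log2 ratio of H2-T22 was 0.96. H2-T22 was 2.10-fold higher with CpG (interval 1.98 to 2.23) and 2.56-fold higher with R848 (2.43 to 2.71). H2-T23 was 1.76-fold higher with CpG (1.68 to 1.84) and 1.96-fold higher with R848 (1.88 to 2.04). Tap1 was 1.59-fold (1.5 to 1.69) and 1.47-fold (1.39 to 1.56) the Control level with CpG and with R848. H2-Q6 was 1.03-fold (0.953 to 1.12) the Control level with CpG and 1.83-fold (1.72 to 1.96) with R848, and its CpG value turned to -0.01 on the log2 scale with the free RNA taken away. H2-Q4 was at 0.852-fold (0.785 to 0.924) with CpG and 1.5-fold (1.41 to 1.61) with R848. H2-K1 was within 1.06-fold (1.04 to 1.08) of Control with CpG and 1.15-fold (1.14 to 1.17) with R848. H2-Q7 was at 0.975-fold (0.945 to 1.0) with CpG and 1.06-fold (1.03 to 1.08) with R848, and the sign of its R848 value turned to -0.01 on the log2 scale under median-of-ratios scaling. At a 1.5-fold limit the count was 3 with CpG and 3 with R848, beside 6.69% and 10.4% of all genes. The median of the members' log2 ratios was 0.31 with CpG and 0.53 with R848, against 0.03 and 0.09 over all genes measured.

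Macrophages gave a like picture. The count was again 1 of 10, H2-T22, beside 3.69% of all genes with CpG and 5.51% with R848. H2-T22 was 2.17-fold (2.01 to 2.34) and 2.72-fold (2.54 to 2.92) the Control level with CpG and with R848. Tap1 stood at the limit with CpG, at 2.03-fold (1.85 to 2.23) before and a log2 ratio of 1.0 after the 5 CPM were added, and H2-T23 did so with R848 at 2.01-fold (1.90 to 2.14). H2-Q6 was 1.38-fold (1.26 to 1.52) and 1.76-fold (1.62 to 1.91) the Control level, and H2-Q4 0.998-fold (0.900 to 1.11) and 1.44-fold (1.32 to 1.57). H2-K1 was 1.03-fold (1.01 to 1.05) and 1.10-fold (1.07 to 1.12) the Control level with CpG and with R848, and the sign of its CpG value changed under scaling without the 50 most abundant genes. At a 1.5-fold limit 3 members passed with CpG and 4 with R848, beside 8.42% and 13.9% of all genes. The median log2 ratio was 0.28 with CpG and 0.45 with R848, against 0.06 and 0.13 over all genes.

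CPM describe shares of a cell's UMIs, and the number of UMIs per cell also differed. The median LysoDC held 13415 UMIs with CpG and 12470 with R848, against 10087 in Control. Counted as mean UMIs per cell, H2-K1 of LysoDC was 1.40-fold the Control level with CpG and 1.44-fold with R848, and H2-T22 was 2.79-fold and 3.21-fold. A larger RNA content per cell and a higher capture of RNA cannot be told apart here. The endothelial marker Pecam1 moved with treatment in these cells, at 109 CPM with CpG and 95.1 CPM with R848 among LysoDC, against 31.7 CPM in Control, and made up nearly all of the summed stromal list (110, 95.7 and 32.3 CPM). Of that list's 4 genes 1 was at 0 in each library, and Pecam1 alone reached 5 CPM. In macrophages the list summed to 127 CPM with CpG and 104 CPM with R848, against 40.3 CPM in Control. A list carried by Pecam1 alone does not show whether these gates held endothelial cells. What part such cells had in the class I values was not tested.

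All 10 members were higher in mature DC of the treated libraries than in those of Control. With CpG 6 of 10 passed 2-fold, where 8.05% of 4499 genes did, and with R848 7 of 10, where 5.09% of 4342 genes did. All 10 passed 1.5-fold with either agonist, beside 19.0% of all genes with CpG and 13.8% with R848. H2-T22 showed the largest fold, 2.94 (2.46 to 3.54) with CpG and 2.71 (2.27 to 3.27) with R848. H2-Q6 was 2.45-fold (2.13 to 2.83) and 2.57-fold (2.23 to 2.98) the Control level, H2-T23 2.40-fold (2.09 to 2.76) and 2.46-fold (2.14 to 2.83), and H2-D1 2.18-fold (2.12 to 2.25) and 2.43-fold (2.36 to 2.51). B2m was 1.80-fold (1.76 to 1.84) higher with CpG and 1.93-fold (1.89 to 1.97) higher with R848, just short of the limit. H2-Q7 had the smallest value with R848, 1.68-fold (1.56 to 1.81). The median log2 ratio of the members was 1.05 with CpG and 1.13 with R848, against 0.12 and -0.01 over all genes. A gate 2 times stricter left 134 Control mature DC, and 3 members passed 2-fold with CpG and 5 with R848.

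Mature DC of the libraries differed in more than class I. They made up 57.9% of CpG, 43.6% of R848 and 5.38% of Control cells kept. Their summed cDC1 markers were 71.4 CPM with CpG and 96.3 CPM with R848, against 169 CPM in Control, and their summed cDC2 markers were 38.8 and 35.2 CPM, against 116 CPM in Control. The macrophage markers, of which 2 of 7 were at 0 in Control, summed to 712 CPM with CpG and 1783 CPM with R848, against 1176 CPM in Control. Few genes carried these sums, since 3 of the 7 reached 5 CPM with CpG, 2 with R848 and 3 in Control. The lysozyme and C1q markers summed to 1039 CPM with CpG and 1136 CPM with R848, against 2735 CPM in Control. None of the 7 cDC1 markers was at 0 in these cells, and of the cDC2 markers Hpgd was at 0 in Control. Whether the gate held cells of other types, and what part they had in the class I values, was not tested. The count was 6 of 10 with CpG and 7 of 10 with R848 also when the free RNA estimated for each library, 2.44% of UMIs with CpG, 2.56% with R848 and 3.81% in Control, was taken away. In mature DC with a Sirpa UMI and no Xcr1 UMI (349 CpG, 224 R848 and 55 Control cells), B2m was 2.03-fold (1.93 to 2.13) higher with CpG and 2.21-fold (2.10 to 2.33) higher with R848 than in Control. H2-T22 of these cells was at 206 CPM with CpG and 192 CPM with R848, against 25.4 CPM in Control, 8.12-fold (4.09 to 18.9) and 7.54-fold (3.77 to 17.6). These cells gave H2-D1 values of 2.49-fold (2.29 to 2.71) and 2.68-fold (2.46 to 2.91). With an Xcr1 UMI and no Sirpa UMI there were 16 Control cells, too few to compare.

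Resting cDC2 had smaller differences from Control. No member passed 2-fold, where 2.75% of 5086 genes did with CpG and 1.79% of 4964 with R848, and 4 of 10 passed 1.5-fold with each agonist, beside 9.18% and 7.66% of all genes. Tap1 came nearest with CpG, at 2.0-fold (1.77 to 2.27) before the 5 CPM were added, and was 1.47-fold (1.28 to 1.70) the Control level with R848. H2-T23 was 1.82-fold (1.65 to 2.02) and 1.87-fold (1.68 to 2.08) the Control level with CpG and with R848. B2m was 1.45-fold (1.41 to 1.48) and 1.58-fold (1.55 to 1.62). The median log2 ratio was 0.49 with CpG and 0.55 with R848, against 0.19 and 0.16 over all genes. When resting and mature DC of each library were pooled, which joins these values with the shift in cell types, all 10 members passed 2-fold, beside 14.0% of all genes with CpG and 12.9% with R848, and H2-Q6 was 6.12-fold (5.59 to 6.71) and 6.35-fold (5.79 to 6.97) the Control level.

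**Figure D3:**
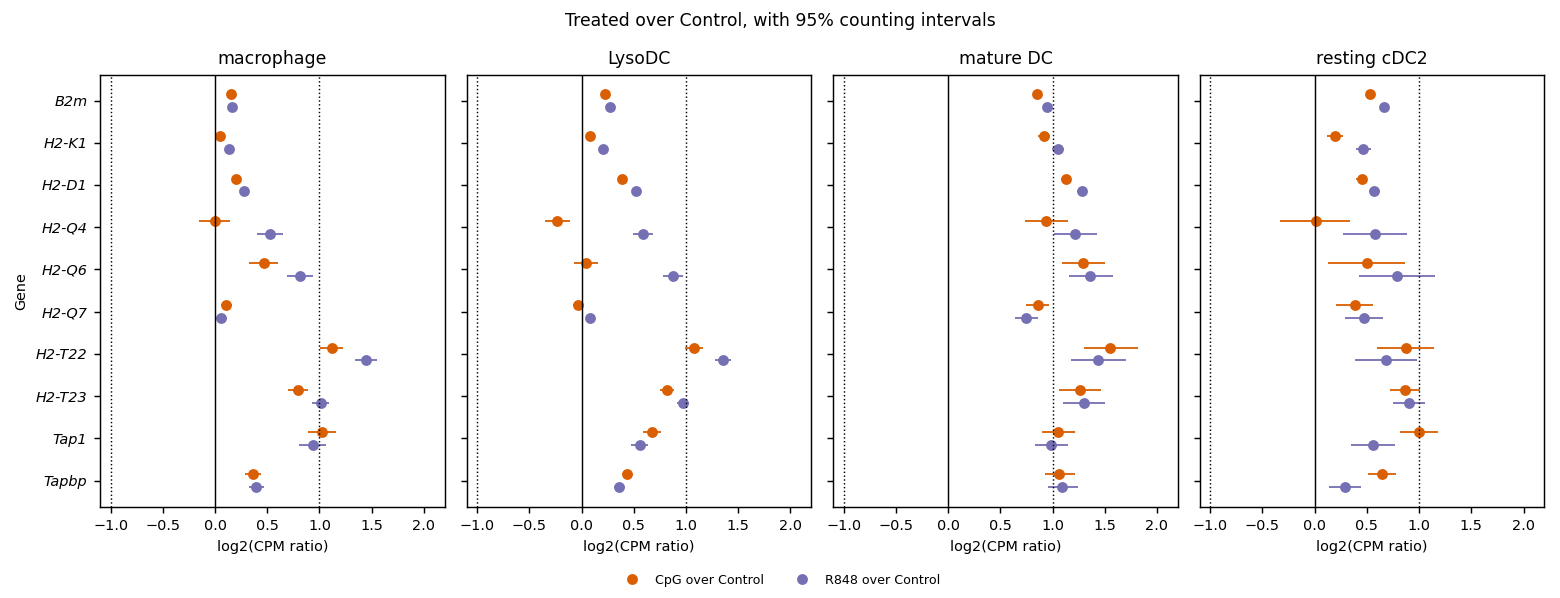
Log2 ratio of CPM (horizontal axis, nothing added to the levels) for each gene in treated over Control cells, with orange for CpG over Control and purple for R848 over Control, lines for the 95% counting interval, a solid line at equal levels and dotted lines at 2-fold. Points of H2-T22, H2-T23 and Tap1 lie right of those of H2-K1 and H2-Q7 in macrophages and LysoDC, while all points of mature DC lie right of equal levels.

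R848 and CpG were set side by side although their receptors and doses differ. No member differed by 2-fold between them in LysoDC, macrophages, mature DC or resting cDC2, where 1.7%, 1.94%, 1.37% and 0.449% of all genes were at least 2-fold higher with R848, and 0.649%, 0.607%, 4.0% and 0.917% at least 2-fold lower. The largest differences were those of H2-Q6, 1.78-fold higher with R848 in LysoDC (1.65 to 1.91), and H2-Q4, 1.77-fold higher (1.64 to 1.91). In mature DC the same genes were at 1.05-fold (1.01 to 1.09) and 1.21-fold (1.16 to 1.26). The mature markers of LysoDC summed to 1166 CPM with R848 and 564 CPM with CpG. An alternative setting left out lysozyme-high cells whose Ccr7 and Fscn1 UMIs summed to at least 8 per 10000. It kept 870 of 901 CpG and 1209 of 1357 R848 LysoDC, so cells with fewer such UMIs stayed in. The log2 ratio of H2-Q6 in LysoDC was then 0.67, against 0.80 in the main gate. That of H2-Q4 was at least 0.69 in every setting. Tap1 was lower with R848 in resting cDC2, at 0.736-fold (0.632 to 0.856) the CpG level.

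Within a library, most members stood higher in mature DC than in resting cDC2. Mature DC over resting cDC2 gave 8 of 10 members at least 2-fold higher with CpG, where 12.3% of 5406 genes were, 9 of 10 with R848 (12.5% of 5277), and 5 of 10 in Control (9.83% of 4976). The Qa region genes led in each library. H2-Q6 was 7.90-fold (6.45 to 9.79) higher in mature DC with CpG, 6.78-fold (5.57 to 8.33) with R848 and 4.56-fold (3.71 to 5.60) in Control. H2-Q7 was 5.15-fold (4.66 to 5.72), 4.47-fold (4.02 to 4.98) and 3.71-fold (3.35 to 4.10) higher. H2-K1 was 3.41-fold (3.27 to 3.56), 3.10-fold (2.97 to 3.24) and 2.07-fold (1.97 to 2.17) higher. H2-T23 stood apart, at 1.21-fold (1.12 to 1.32) with CpG, 1.21-fold (1.11 to 1.32) with R848 and 0.922-fold (0.791 to 1.07) in Control, and its Control value changed sign under median-of-ratios scaling. The median log2 ratio of the members was 1.57 with CpG, 1.62 with R848 and 0.98 in Control, against -0.32, -0.43 and -0.26 over all genes.

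**Figure D4:**
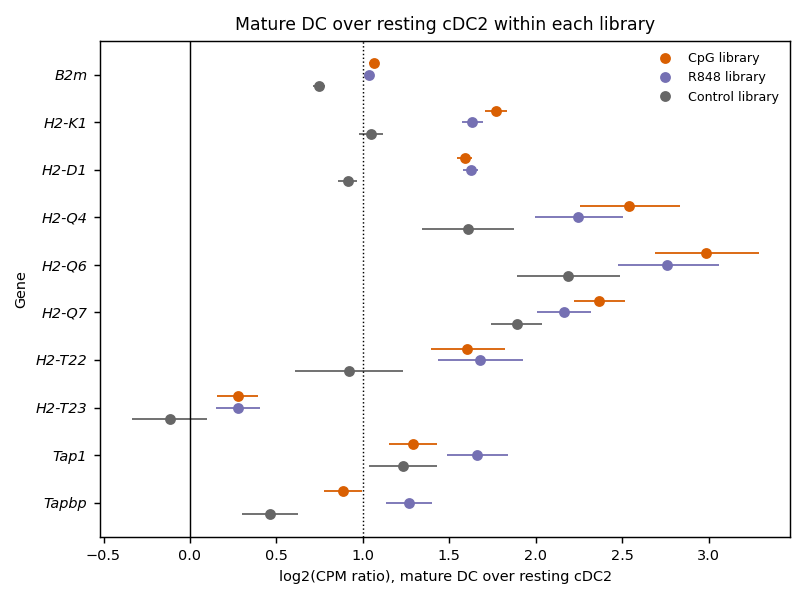
Log2 ratio of CPM in mature DC over resting cDC2 of the same library (horizontal axis, nothing added to the levels) for each gene, with orange for CpG, purple for R848 and grey for Control, lines for the 95% counting interval and a dotted line at 2-fold. H2-Q4, H2-Q6 and H2-Q7 lie farthest right in all libraries, and H2-T23 lies near equal levels.

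Resting cDC1 could be compared in Control. Over resting cDC2 they held 2.91-fold (2.62 to 3.24) more Tap1, 1.59-fold (1.54 to 1.64) more H2-D1, 1.43-fold (1.36 to 1.49) more H2-K1 and 1.05-fold (1.03 to 1.07) more B2m. Tap1 was the member past 2-fold, 1 of 10, beside 4.15% of 4769 genes. Mature DC over resting cDC1 gave 3 of 10 members at least 2-fold higher, beside 16.3% of 4708 genes, and these were H2-Q4, H2-Q6 and H2-Q7 at 3.19-fold (2.54 to 4.02), 3.10-fold (2.47 to 3.90) and 3.06-fold (2.71 to 3.44). Tap1 was lower in mature DC than in resting cDC1, at 0.808-fold (0.710 to 0.918), and H2-T23 at 0.842-fold (0.714 to 0.991). Among mature DC, those with an Xcr1 UMI and no Sirpa UMI (53 cells with CpG, 171 with R848) had higher levels of each member than those with Sirpa and no Xcr1, though the interval of H2-T23 with R848 reached 0.993-fold. None passed 2-fold, beside 5.43% of all genes with CpG and 3.1% with R848. H2-D1 was 1.65-fold (1.58 to 1.71) higher in them with CpG and 1.67-fold (1.63 to 1.72) with R848, and Tap1 1.73-fold (1.52 to 1.97) and 1.43-fold (1.28 to 1.59).

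Macrophages had higher levels of the members than LysoDC of the same library. H2-K1 was 1.62-fold (1.59 to 1.65) higher with CpG, 1.58-fold (1.55 to 1.60) with R848 and 1.66-fold (1.63 to 1.69) in Control. H2-Q6 with CpG was the member past 2-fold, at 2.15-fold (1.97 to 2.35), and none passed with R848 or in Control, beside 1.64%, 1.23% and 1.94% of all genes. Tap1 of Control was at 1.01-fold (0.922 to 1.10). LysoDC over resting cDC2 gave 4 of 10 members at least 2-fold higher with CpG, 5 with R848 and 6 in Control, beside 10.9%, 12.0% and 9.91% of all genes, led in Control by H2-Q7 at 4.82-fold (4.48 to 5.18), while Tap1 with CpG was at 1.03-fold (0.929 to 1.14).

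Cells were also ordered by 10 genes known to be switched on by type I interferon, none of them a member (Isg15, Ifit1, Ifit2, Ifit3, Irf7, Rsad2, Oasl2, Rtp4, Usp18 and Zbp1). In Control LysoDC H2-T22 was at 98.3 CPM in the 639 cells with 0 to 2 interferon-list UMIs per 10000 and at 169 CPM in the 65 cells with 10 to 20. In CpG LysoDC it was at 153 CPM in cells with 5 to 10 and at 350 CPM in cells with 50 or more, and in R848 LysoDC at 135 and 491 CPM in the same ranges. Tap1 of LysoDC was at 118 and 260 CPM over these ranges with CpG, and at 139 and 263 CPM with R848. H2-K1 spanned less, at 1771 and 2369 CPM with CpG and at 1688 and 2816 CPM with R848. At a matched range of 10 to 20, H2-T22 of LysoDC stood at 182 CPM with CpG and 211 CPM with R848, against 169 CPM in Control, and Tap1 at 153 and 145 CPM, against 158 CPM in Control. Across libraries H2-T22 of LysoDC thus spanned 169 to 211 CPM in this range. H2-K1 of LysoDC stood at 1956 CPM with CpG and 2068 CPM with R848 there, lower than the 2375 CPM of Control. In the range of 5 to 10, H2-T22 of LysoDC was at 139 CPM and Tap1 at 142 CPM in Control. Macrophages in the range of 10 to 20 kept a wider gap. Their H2-T22 was at 262 CPM with CpG (45 cells) and 359 CPM with R848 (56 cells), against 191 CPM in Control (34 cells). Their Tap1 was at 233 and 192 CPM, against 135 CPM in Control.

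Mature DC of the treated libraries stood above those of Control also in matched ranges. In cells with 2 to 5 interferon-list UMIs per 10000, H2-K1 was at 2614 CPM with CpG (77 cells) and 3321 CPM with R848 (59 cells), against 1794 CPM in Control (90 cells). Tap1 was at 374 CPM with CpG and 396 CPM with R848 within this range, against 251 CPM in Control. Within CpG mature DC Tap1 was at 385 CPM in the range of 5 to 10 and 513 CPM in that of 50 or more. Ranges were made from the same cells and libraries as the levels, so these values are descriptions.

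**Figure D5:**
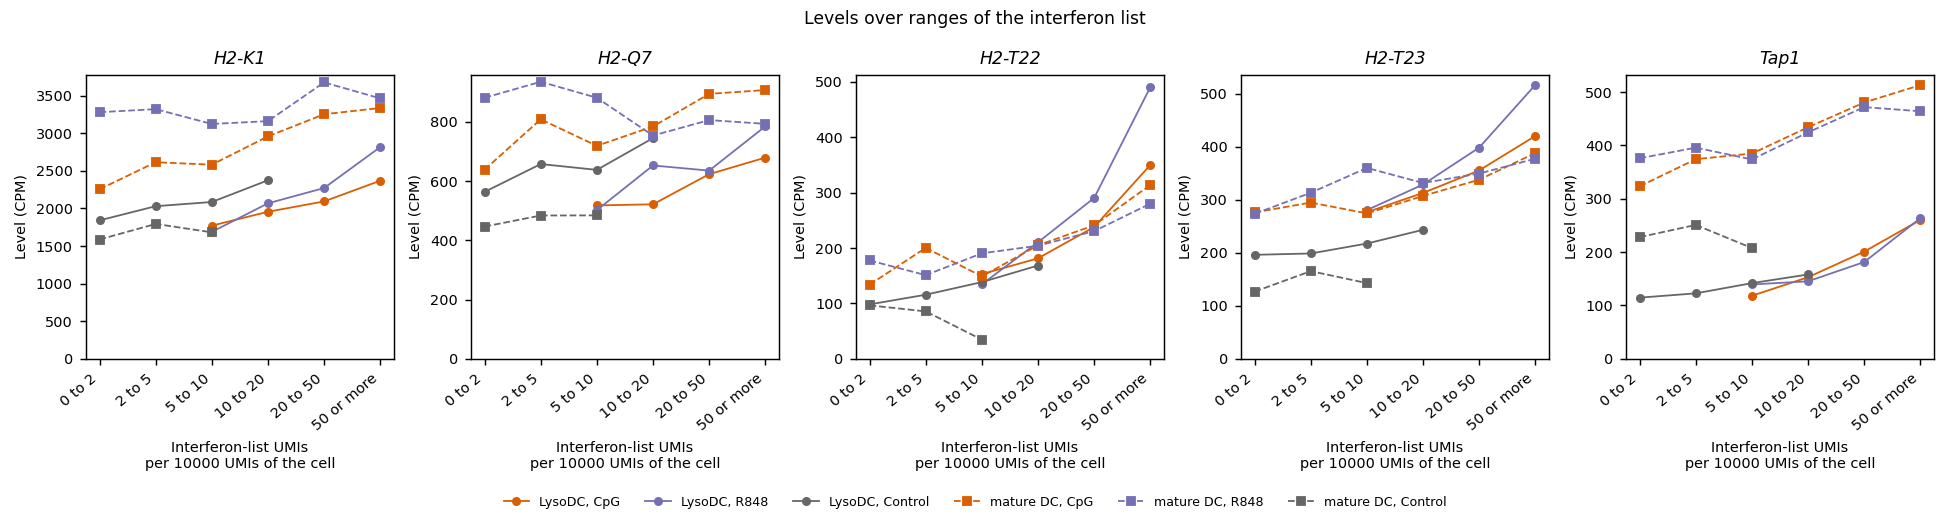
Level in CPM (vertical axis, from 0) of 5 genes over ranges of interferon-list UMIs per 10000 UMIs of a cell (horizontal axis), with circles and solid lines for LysoDC, squares and dashed lines for mature DC, and orange, purple and grey for CpG, R848 and Control; ranges under 20 cells are left out. H2-T22 of LysoDC is at 98.3 CPM in the lowest Control range and 491 CPM in the highest R848 range, while mature DC of the treated libraries lie above Control mature DC in the shared ranges.

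Of 8 further loading genes, 2 were at least 2-fold higher in mature DC with CpG, beside 8.05% of all genes, and 2 with R848, beside 5.09%, than in Control. With either agonist these were Tap2 and Tapbpl. Tap2, the second transporter subunit, stood at 399 CPM with CpG and 382 CPM with R848, against 143 CPM in Control, which is 2.79-fold (2.44 to 3.21) and 2.67-fold (2.33 to 3.08). Tapbpl encodes TAPBPR, a peptide editor related to tapasin, and stood at 297 and 329 CPM, against 133 CPM in Control. Among the chaperones of the reticulum, Calr, encoding calreticulin, was at 428 CPM with CpG and 317 CPM with R848, against 444 CPM in Control. Hspa5, encoding the chaperone BiP, was at 311 CPM with CpG and 178 CPM with R848 among mature DC, against 277 CPM in Control. Resting cDC2 held 549, 519 and 428 CPM of it in the CpG, R848 and Control libraries, so that mature DC over resting cDC2 was 0.342-fold (0.318 to 0.369) with R848. The list's median log2 ratio was 0.56 with CpG and 0.13 with R848 in mature DC over Control. In LysoDC none of the 7 loading genes measured passed 2-fold with either agonist.

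Of 18 further class I and class I-like heavy chains, 12 were among the genes of the matrices, and 5 were measured in mature DC. With CpG 2 were at least 2-fold higher than in Control, beside 8.05% of all genes, and 2 lower, beside 5.31%. With R848 1 was higher, beside 5.09%, and 1 lower, beside 5.71%. Cd1d1, which presents lipids to NKT cells, was at 587 CPM with CpG and 497 CPM with R848, against 101 CPM in Control, log2 ratios of 2.48 and 2.24. H2-Q10 was at 89.7 CPM with CpG, against 22.7 CPM in Control, and at 28.0 CPM with R848. H2-M2 ran the other way in mature DC, at 15.2 CPM with CpG and 29.4 CPM with R848, against 152 CPM in Control. Hfe, an iron-regulating relative of class I, was at 60.03 CPM with CpG, against 149 CPM in Control. Cd1d1 was also higher in resting cDC2, at 57.7 CPM with CpG and 74.3 CPM with R848, against 14.6 CPM in Control. Fcgrt, the Fc receptor that pairs with B2m, was at 95.8 CPM in resting cDC1 of Control, against 17.4 CPM in resting cDC2.

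Among the regulators, Stat2, which carries interferon signals to the nucleus, was at least 2-fold higher than Control in every type compared. Stat2 was at 59.98 CPM with CpG and 67.3 CPM with R848 among mature DC, against 12.01 CPM in Control. Nlrc5, the known transactivator of class I genes, had LysoDC levels of 33.7 CPM (CpG) and 40.7 CPM (R848), against 17.8 CPM in Control, and mature DC levels of 35.4 and 42.7 CPM, against 21.3 CPM. Ciita, the transactivator of class II genes, was at least 2-fold lower in mature DC with CpG, at 17.4 CPM against 52.0 CPM in Control. Mature DC over resting cDC2 gave other leaders. Irf1 stood at 375 CPM in mature DC with CpG against 68.6 CPM in resting cDC2, at 407 against 76.3 CPM with R848, and at 240 against 51.6 CPM in Control. Relb was at 867 against 282 CPM, 988 against 262 CPM and 901 against 242 CPM in the same order, and differed little between mature DC of the libraries.

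The MHC class II list, 10 genes of the class II pathway, ran opposite to the members in mature DC. All 10 were at least 2-fold lower with CpG than in Control, beside 5.31% of all genes, and 3 with R848, beside 5.71%. Their median log2 ratio was -1.81 with CpG and -0.84 with R848. H2-Ab1, a class II beta chain, was at 1914 CPM with CpG and 3689 CPM with R848, against 9418 CPM in Control. In LysoDC the class II median was -0.34 with CpG and -0.77 with R848, beside the class I medians of 0.31 and 0.53.

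Across the 13 profiles of a type in a library, the members' log2 levels correlated to different degrees. B2m correlated at Pearson r = 0.95 with H2-K1, 0.96 with H2-Q7 and 0.95 with Tapbp, and at 0.38 with Tap1. The pairs of Tap1 with the other members ran from 0.36 with H2-T23 to 0.67 with H2-Q6. H2-T23 gave 0.54 with H2-Q4, 0.62 with H2-Q6, 0.63 with H2-Q7 and 0.68 with H2-K1. H2-Q4 and H2-Q6 gave r = 0.98 with each other. The profiles share libraries, cell types and depth, and 2276 genes with at least 100 CPM in a profile were ranked beside each of 5 members. The genes most like B2m were Slc6a6 (0.95), 9530068E07Rik (0.94) and Os9 (0.94). Those most like H2-Q7 were Slc6a6 (0.96), 9530068E07Rik (0.95) and BC005537 (0.94), and those most like H2-K1 were 9530068E07Rik (0.94), BC005537 (0.93) and Rtn4 (0.93). Tap1 was nearest to Trafd1 (0.91), Pla2g16 (0.90) and Tor1aip2 (0.86), and Tapbp to Tmem33 (0.95), Derl2 (0.93) and Oasl1 (0.93).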

How the data were processed

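The authors deposited matrices of unnormalised UMI counts for each gene and barcode, made with Cell Ranger 2.0.0 on build mm10 per the submitters' processing notes. The sources used here do not give the annotation release. Cells with at least 500 genes and at most 10% mitochondrial UMIs were kept. Doublets were scored against simulated ones in each library and the highest were removed at 0.8% per 1000 cells (202 CpG, 209 R848 and 225 Control cells). Cells were gated on UMIs of fixed markers per 10000, with limits set from the marker distributions. Counts were summed per type and library, for types of at least 50 cells, and scaled to CPM. Log2 ratios had 5 CPM added, and genes from 20 CPM on either side were measured. Levels carry exact Poisson and folds exact conditional binomial intervals at 95%. The fold calls and their intervals were tested on simulated data. All steps were run in Python 3.11.15 with numpy 2.4.6, scipy 1.17.1, pandas 2.3.3 and scikit-learn 1.9.0. All 10 members are named. Genes of further lists are named from 20 CPM and a 2-fold difference, or beside a member of their complex, and the 3 genes with the highest correlation are named for each of 5 members. Members and lists were chosen with earlier results of these data known. Alternatives were other pseudocounts, minimums, scalings, gates, filters and doublet settings.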

Additional observations from a re-analysis of the deposited data

Results flagged for a closer look

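H2-M2, a class I-like heavy chain outside the 10 members, moved in opposite directions with R848 in different cell types. Macrophages held 59.3 CPM of it with R848 and 22.99 CPM in Control, a log2 ratio of 1.20. Mature DC held 29.4 CPM of it with R848 and 152 CPM in Control, a log2 ratio of -2.19. The difference between the types was not tested, since each group was 1 library. Rac2, a regulator of the phagocyte oxidase, gave log2 ratios of R848 over Control of 2.60 in LysoDC, 1.81 in macrophages and -0.77 in mature DC. Its log2 ratios of R848 over CpG were 2.59 in LysoDC, 1.93 in macrophages and -1.31 in mature DC. Several class II genes were higher with R848 than with CpG in mature DC and lower in other types. These log2 ratios of R848 over CpG were 1.15 in mature DC and -0.62 in macrophages for H2-Aa, 0.94 and -0.68 for H2-Ab1, and 1.20 and -0.59 for H2-Eb1. The ratio for H2-DMa was 0.81 in mature DC, -0.85 in LysoDC and -1.33 in macrophages, and for H2-DMb2 1.09, -0.98 and -1.09 in the same types. H2-DMb1 gave 0.61 in resting cDC2 and -0.66 in macrophages. Rsad2, of the interferon list, gave 0.62 in mature DC and -0.61 in resting cDC2. None of these differences between types was tested. Of 60 genes of the members and of the 6 further lists, those named here moved by 1.5-fold or more in opposite directions, with counting intervals clear of equal levels, in types of the same comparison, and none of the 10 members did so.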

How the results depend on the processing

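The counts of members past 2-fold in 15 comparisons were recomputed under 20 settings, of which 15 were planned and 5 were chosen after seeing the data. Of 231 values 207 stayed within 1.5 times the count reported and 24 did not, and no member past 2-fold changed direction among 2310 member values. A 1.5-fold limit gave 3 members for LysoDC with CpG, 3 with R848 and 2 for R848 over CpG, 3 for macrophages with CpG and 4 with R848, 10 for mature DC with CpG, 4 for resting cDC2 with CpG and 4 with R848, and 8 for mature DC over resting cDC2 in Control. Macrophages gave 2 with CpG and 2 with R848 at a pseudocount of 1 CPM, under gates 2 times stricter and without interferon-active Control cells, and 2 with CpG at 1000 genes and 5% mitochondrial UMIs, by highest marker z-score and without proliferating cells. A pseudocount of 20 CPM gave 0 for LysoDC with CpG. Gates 2 times stricter gave 3 for mature DC with CpG, and 1 for resting cDC2 with each agonist. Median-of-ratios scaling gave 8 for mature DC over resting cDC2 in Control, and it moved the median of all genes from -0.43 to 0.04 for the same contrast with R848, the largest such shift. All DC pooled gave 10 with CpG. The causes were not tested beyond what each setting changes by its construction. Xcr1-positive mature DC could not be set against Control, which had 16 such cells. No paired analysis was possible because each group was 1 library of pooled mice. With 1 library a group, variation between mice is unknown, and the counting intervals are narrower than that would make them.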

Other observations

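The cross-presentation list, which no comparison of the report used, held Rac2, a regulator of the phagocyte oxidase. Of its 6 genes 4 were measured. Rac2 was at 250 CPM in LysoDC with R848 and 37.5 CPM with CpG, against 37.0 CPM in Control, and at 365 and 92.3 CPM in macrophages, against 100 CPM in Control. In mature DC it was at 56.8 CPM with R848 and 148 CPM with CpG, against 100 CPM in Control. In resting cDC2 Rac2 was at 437, 428 and 430 CPM with R848, with CpG and in Control. Cybb, the oxidase's catalytic subunit, was at 788 CPM in LysoDC with R848 and 769 CPM with CpG, against 589 CPM in Control, and at 1091 and 975 CPM in macrophages, against 795 CPM in Control. Cybb was at 27.5 CPM in mature DC with R848 and 43.4 CPM with CpG, against 74.1 CPM in Control, and at 11.9 CPM in resting cDC1 of Control, against 197 CPM in resting cDC2 of that library.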
